A study of Homo sapiens with 12 samples.

Results

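The genes of cholesterol and fatty acid synthesis were followed in MDA-MB-231 cells, an established human triple-negative breast cancer line, that carried the glucocorticoid receptor as wild type (WT-GR) or with 1 serine changed to alanine (S134A-GR). The members are 37 genes picked by name from a fixed list, out of 19907 genes with values in all 12 libraries. That list was chosen with earlier results of these data known. They comprise 18 enzymes of cholesterol synthesis, 5 regulators of the SREBP transcription factors, 3 carriers of cholesterol inside the cell, 6 enzymes of fatty acid synthesis, and 5 genes around the liver X receptors (LXR), which sense oxidised sterols. All 4 groups shared 18 h of serum starvation in IMEM with 1% DCC, an additive whose abbreviation the labels leave unexplained. The groups were WT-GR with vehicle for 6 h, WT-GR with 1 µM dexamethasone (Dex, a synthetic glucocorticoid) for 6 h, S134A-GR with vehicle and S134A-GR with Dex, with 3 libraries in each. The labels do not say whether a cell line is 1 clone or a pool, so the receptor's genotype and the line that carries it cannot be told apart. They also do not say whether the 3 libraries came from separate cultures, so the p-values cover the variation among these libraries alone, which could be technical.

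Cells make cholesterol from acetyl-CoA through the mevalonate pathway, squalene and lanosterol, and they make fatty acids from the same acetyl-CoA. Both pathways are governed by the SREBPs, membrane-bound transcription factors that SCAP escorts from the endoplasmic reticulum to the Golgi for cleavage when sterols are scarce, while INSIG proteins hold SCAP back when sterols are plentiful. The LXRs respond to excess sterol by raising export pumps such as ABCA1 and ABCG1.

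Promoter letters are shown for SREBF2, the only member with a match to the classical sterol regulatory element. They are also shown for 4 of the 6 members that were lower with Dex in both genotypes. The others of that set, INSIG2 and ELOVL6, had no match to either marked motif in the window searched and are not printed. The sequences are RefSeq's (GRCh38.p14), 5′ to 3′ on each gene's strand, and stop where the GENCODE gene begins. Capitals mark the sterol regulatory element TCACNCCAC and the NF-Y box CCAAT, read on either strand (ATTGG is the box on the other strand).
SREBF2, chr22:41832855-41833078 (plus strand): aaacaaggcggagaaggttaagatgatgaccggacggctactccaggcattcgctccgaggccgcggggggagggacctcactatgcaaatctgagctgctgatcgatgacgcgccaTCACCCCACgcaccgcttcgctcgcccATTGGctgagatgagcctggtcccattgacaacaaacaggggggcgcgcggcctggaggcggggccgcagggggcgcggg
INSIG1, chr7:155297628-155297775 (plus strand): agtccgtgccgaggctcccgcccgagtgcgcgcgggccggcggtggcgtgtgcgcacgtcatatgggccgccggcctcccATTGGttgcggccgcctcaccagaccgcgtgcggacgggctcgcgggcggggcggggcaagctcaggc
HMGCS1, chr5:43313513-43313662 (minus strand): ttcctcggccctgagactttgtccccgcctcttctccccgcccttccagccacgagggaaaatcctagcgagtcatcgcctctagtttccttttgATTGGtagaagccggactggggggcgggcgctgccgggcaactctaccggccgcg
STARD4, chr5:111512591-111512785 (minus strand): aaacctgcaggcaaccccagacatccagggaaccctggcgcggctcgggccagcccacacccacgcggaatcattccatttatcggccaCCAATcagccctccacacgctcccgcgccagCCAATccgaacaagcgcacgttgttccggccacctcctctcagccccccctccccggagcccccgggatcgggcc
SCD, chr10:100346983-100347123 (plus strand): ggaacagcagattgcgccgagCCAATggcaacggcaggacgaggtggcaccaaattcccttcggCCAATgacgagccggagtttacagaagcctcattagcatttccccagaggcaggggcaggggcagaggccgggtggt

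In SREBF2 the element begins 133 bases before the RefSeq start and the NF-Y box 106 bases before it. INSIG1 has its box at 170 bases, HMGCS1 at 155 and at 100 (the latter lies inside the GENCODE gene and is not printed), STARD4 at 161 and 130, and SCD at 229 and 186. RefSeq promoters were matched for 32 of the 37 members, and the 250 bases before each start were searched on both strands. The NF-Y box occurred in 20 of the 32 (62.5%), against 34.41% of the 13386 promoters of genes in the files. The sterol regulatory element occurred in 1 of 32 (3.1%) against 0.87%, the GC box GGGCGG in 30 of 32 (93.8%) against 60.03%, and the E-box CACGTG in 4 of 32 (12.5%) against 8.09%. Motifs were searched separately and can overlap. The glucocorticoid response element (AGAACA and TGTTCT, 3 bases apart) and the LXR repeat (AGGTCA and AGGTCA, 4 bases apart) matched in 0 of 32 members and 0 of the 13386 promoters as exact letters. These matches describe the letters of this window only.

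The reads recovered from the values came to between 56.4 and 100.6 M per library (M, mega), with a mean of 85.2 M. The shallowest were WT-GR vehicle replicate 1 (56.4 M) and WT-GR Dex replicate 1 (56.9 M), and all others had 82.4 M or more. In the Dex files the gene names are shifted against the values, so the values were named by line from the vehicle files, and every Dex result rests on that step. The markers of the line, VIM, CD44, EGFR, FN1, CAV1 and AXL, were all detected (6 of 6, together 612414 to 743141 in a library), ESR1 lay between 0 and 5.66, and PGR was not found among the listed genes. The other luminal genes GATA3 (786 to 1574) and FOXA1 (137 to 303) were present. Of 6 blood and endothelial markers 4 were found, with PTPRC at 18.3 or less, CD14 at 54.9 or less, CDH5 between 13.2 and 420.0, and PECAM1 between 1079 and 2779.5. WT-GR Dex replicates 2 and 3 stood apart, with 193 and 210 genes at exactly 1 read against 352 to 409 in the others, and the WT-GR Dex group had the widest spread (median log2 SD of 0.148, beside 0.065 to 0.094). Some member results that rest on that group are therefore also given without these libraries. That fit keeps WT-GR Dex replicate 1 alone, the shallowest library of its group, and assumes that it varies like the other groups. Other genes of sterol and lipid metabolism are given with all libraries only.

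Per kilobase of exon, the members spanned several orders of magnitude. In WT-GR vehicle the mean normalized read count per kb was 38050.5 for SCD, the desaturase that makes oleate, 16475 for ACLY, which makes cytosolic acetyl-CoA from citrate, 12528 for INSIG1 and 11904 for FASN, the fatty acid synthase. The lowest were ABCG1 at 3.63, ACACA, an acetyl-CoA carboxylase, at 47.3, and ABCA1 at 162. S134A-GR with Dex had the lowest of the 4 group means in 27 of 37 members (73%), against 23.6% of all 15957 genes tested. WT-GR vehicle had the highest in 20 of 37 (54.1%, against 26.6%) and WT-GR with Dex in 12 (32.4%, against 25.5%). Lowest and highest means are a description of the groups and carry no test.

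**Figure D1:**
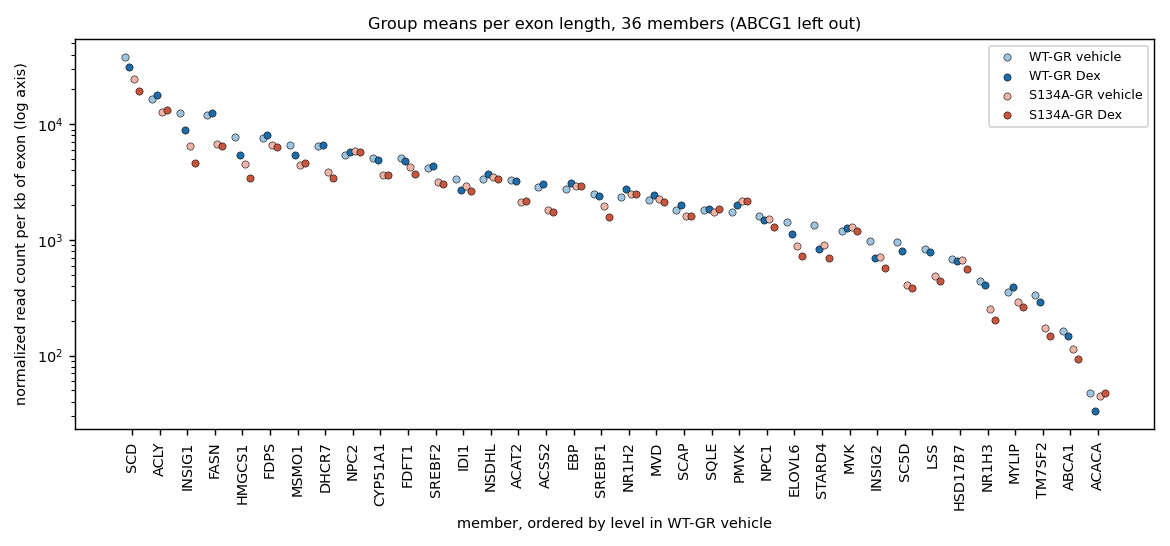
Mean normalized read count per kb of GENCODE exon (log axis) for 36 members, ordered by their level in WT-GR vehicle, with 1 point per group (mean of 3 libraries). ABCG1 is left out because it is at or near 0 in S134A-GR cells. SCD is at 38050.5 in WT-GR vehicle and 19395 in S134A-GR Dex, and ACACA is near 47.3.

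The comparison of S134A-GR with WT-GR cells asks how the lines differ in the absence and in the presence of Dex. Most of the pathway was lower in S134A-GR cells. In vehicle, 26 of 37 members were lower and 1 higher by limma (adjusted p under 0.05), where 26.7% of all 15957 genes were lower and 23.8% higher. In Dex, 28 were lower and 0 higher, where 26.3% of all genes were lower and 23.4% higher. Beside that count of 0, limma gave 0 higher members at an unadjusted p under 0.05, and edgeR and DESeq2 gave 0. All log2 differences are S134A-GR minus WT-GR. The median over the members was -0.39 in vehicle and -0.42 in Dex, against 0.011 over all genes in each, and it does not depend on the size given to ABCG1, whose difference is the lowest of all. ABCG1 is counted among the lower members although it passed the filter on low values through WT-GR libraries alone.

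By role, 11 cholesterol synthesis enzymes of 18 were lower in vehicle and 12 in Dex, and all 5 SREBP regulators were lower in each. In each treatment 5 of 6 fatty acid enzymes were lower, as were 4 of 5 LXR genes, ABCG1 among them. The intracellular carriers had 1 of 3 lower in vehicle and 2 of 3 in Dex. The role medians in vehicle were -0.22 for cholesterol enzymes, -0.39 for SREBP regulators, -0.64 for fatty acid enzymes and -0.08 for carriers, and in Dex -0.29, -0.52, -0.66 and -0.22. Of the 37 members, 25 were lower in both treatments, ABCG1 among them, and the share of all genes lower in both was not counted. IDI1 was lower in vehicle alone, NSDHL, HSD17B7 and NPC1 in Dex alone, and PMVK was higher in vehicle. Scaling by library size alone (edgeR) moved the split from 1 higher and 26 lower to 5 higher and 24 lower in vehicle. Over all genes it moved from 3804 higher and 4257 lower to 4849 higher and 3285 lower. In Dex this scaling gave 2 higher and 22 lower members, with the median of all genes shifted to 0.115. All genes in Dex moved from 3730 higher and 4201 lower to 5347 higher and 2896 lower. Without WT-GR Dex replicates 2 and 3 the count in Dex was again 28 lower, 24 of them shared with the count over all libraries. The 4 members gained were MVD (-0.19 with all libraries and -0.42 without those), MVK (-0.11 and -0.22), EBP (-0.06 and -0.20) and NR1H2 (-0.15 and -0.29), at limma adjusted p from 0.00147 to 0.0279 without them. The comparisons in vehicle and in Dex use different libraries.

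**Figure D2:**
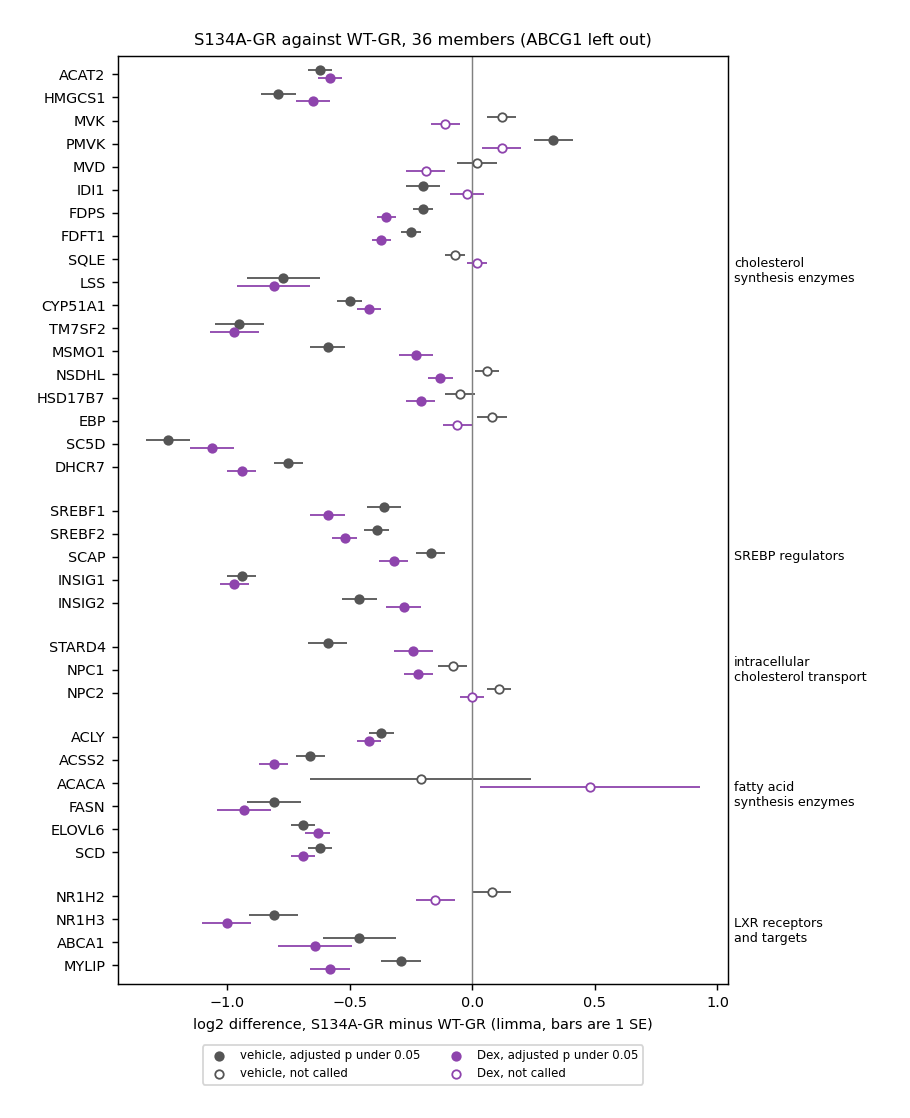
log2 difference between S134A-GR and WT-GR cells (limma, bars are 1 SE) for 36 members grouped by role, in vehicle and in Dex, with filled points at adjusted p under 0.05. Nearly all filled points lie left of 0, from -1.24 (SC5D, vehicle) to -0.13 (NSDHL, Dex), and PMVK in vehicle, at 0.33, is the one filled point on the right.

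Among the early enzymes, HMGCS1 makes HMG-CoA, the substrate from which mevalonate is formed. HMGCS1 (chromosome 5, 43289395 to 43313512, GRCh38, as for all positions here) had normalized read counts of 34825, 38467 and 36697 (WT-GR vehicle), 23450.0, 24711 and 28309 (WT-GR with Dex), 20388, 22414 and 20838 (S134A-GR vehicle) and 17316, 15194 and 16049.9 (S134A-GR with Dex). All S134A-GR libraries lay below all WT-GR libraries of the same treatment. The log2 difference was -0.79 ± 0.07 (SE) in vehicle and -0.65 ± 0.07 in Dex, with limma adjusted p = 9.5e-07 and 5.54e-06. ACAT2, which joins acetyl-CoA units at the head of the pathway, was lower, at -0.62 and -0.58 (limma adjusted p = 8.13e-07 and 1.53e-06). In GENCODE 26.5% of its exon bases also lie in exons of SOD2 on the opposite strand and 9.2% in TCP1, and since strand use in counting is not stated its count is uncertain. Mevalonate kinase (MVK) and the decarboxylase MVD were not called with all libraries: MVK was at 0.12 and -0.11, MVD at 0.02 and -0.19. PMVK, phosphomevalonate kinase, was higher in S134A-GR vehicle, with a mean of 2791 ± 161 (SD, n = 3) against 2222 ± 79.6 in WT-GR vehicle, a log2 difference of 0.33 (limma adjusted p = 0.00398). In Dex its difference was 0.12 (limma adjusted p = 0.243).

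In the middle of the pathway the differences were small. FDPS, which makes farnesyl diphosphate, was lower, at -0.20 and -0.35, and FDFT1, squalene synthase, at -0.25 and -0.37 (limma adjusted p from 4.63e-06 to 0.00179). FDPS shares 18.6% of its exon bases with RUSC1-AS1 on the opposite strand. SQLE, squalene epoxidase, lay between 7326 and 8210.1 in all 12 libraries, with differences of -0.07 and 0.02 (limma adjusted p = 0.222 and 0.794, 95% intervals -0.16 to 0.03 and -0.08 to 0.11). The isomerase IDI1 was called in vehicle (-0.20, limma adjusted p = 0.0313) and not in Dex (-0.02, limma adjusted p = 0.834). It shares 14.8% of its exon bases with IDI2-AS1 on the opposite strand.

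Several enzymes that shape the sterol ring were lower in both treatments. LSS, lanosterol synthase (chromosome 21, 46188141 to 46228824), had normalized read counts of 5049.5, 6124 and 6918 (WT-GR vehicle), 6597, 5993 and 4495 (WT-GR with Dex), 3610.0, 4059 and 2969 (S134A-GR vehicle) and 2969, 3288 and 3348 (S134A-GR with Dex). The WT-GR libraries scattered widely, and every S134A-GR library was still below them. LSS was lower, at -0.77 and -0.81 (limma adjusted p = 0.000644 and 0.000423). CYP51A1, the lanosterol demethylase, was lower, at -0.50 and -0.42 (limma adjusted p = 5.61e-06 and 2.61e-05).

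TM7SF2, a sterol reductase (chromosome 11, 65111845 to 65116384), had counts of 1077, 1180.5 and 1166 (WT-GR vehicle), 1132, 976 and 884 (WT-GR with Dex), 620.2, 598 and 553 (S134A-GR vehicle) and 471, 509 and 539.7 (S134A-GR with Dex). The genotypes did not overlap in either treatment, and TM7SF2 was 1.93-fold lower in vehicle and 1.97-fold lower in Dex (log2 -0.95 and -0.97, limma adjusted p = 3.44e-06 and 2.91e-06). SC5D, a sterol desaturase of the last steps (chromosome 11, 121292453 to 121308694), had counts of 5561, 5483 and 5037 (WT-GR vehicle), 3913, 4376 and 5094 (WT-GR with Dex), 2197, 2471 and 2133 (S134A-GR vehicle) and 2177, 2169.5 and 2033 (S134A-GR with Dex). This was the widest gap of any member other than ABCG1, at 2.36-fold lower in vehicle and 2.1-fold lower in Dex (log2 -1.24 ± 0.09 and -1.06 ± 0.09, SE, limma adjusted p = 1.03e-07 and 4.52e-07). DHCR7, the reductase that makes cholesterol from its last precursor (chromosome 11, 71428193 to 71452868), had counts of 26033, 27134 and 27327 (WT-GR vehicle), 30123, 26734 and 25770.4 (WT-GR with Dex), 16036, 16286 and 15516 (S134A-GR vehicle) and 13617, 14618 and 14889 (S134A-GR with Dex). Its S134A-GR libraries all lay below its WT-GR libraries, at -0.75 (vehicle) and -0.94 (Dex; limma adjusted p = 1.98e-07 and 2.81e-08).

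Of the other ring-modifying enzymes, MSMO1, a sterol methyl oxidase, was lower, at -0.59 (vehicle) and -0.23 (Dex; limma adjusted p = 1.92e-05 and 0.0208). The Dex call was lost without any 1 of 3 libraries, S134A-GR Dex replicates 2 and 3 and WT-GR Dex replicate 3. Without WT-GR Dex replicates 2 and 3 together the difference was -0.12. NSDHL and HSD17B7, a sterol dehydrogenase and a sterol ketone reductase, were lower in Dex, at -0.13 and -0.21, and in vehicle they were at 0.06 and -0.05 (limma adjusted p = 0.268 and 0.469). HSD17B7 has a near-identical pseudogene copy, so its reads may be split between the copies, and without those WT-GR Dex libraries its Dex difference was -0.20 (limma adjusted p = 0.0534). EBP, a sterol isomerase, was at 0.08 and -0.06 and was not called.

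The SREBP regulators were lower together. SREBF1, whose proteins favour fatty acid genes, was lower, at -0.36 in vehicle and -0.59 in Dex, and SREBF2, whose protein favours cholesterol genes, at -0.39 and -0.52 (limma adjusted p from 1.34e-06 to 0.000775). SREBF1 shares 6.9% of its exon bases with RAI1 on the opposite strand. SCAP, the escort protein, was lower, at -0.17 and -0.32 (limma adjusted p = 0.0315 and 0.000875). INSIG1, which retains SCAP and is itself a sensitive SREBP target (chromosome 7, 155297776 to 155310235), had normalized read counts of 42157, 47994 and 47031 (WT-GR vehicle), 32968, 32405 and 32804 (WT-GR with Dex), 22721, 25789 and 23013 (S134A-GR vehicle) and 16578, 17150.2 and 16412 (S134A-GR with Dex). The 4 groups of INSIG1 libraries did not overlap with one another. INSIG1 was 1.92-fold lower in S134A-GR vehicle and 1.96-fold lower in S134A-GR Dex (log2 -0.94 ± 0.06 and -0.97 ± 0.06, SE, limma adjusted p = 2.53e-08 and 2.11e-08). INSIG2, its relative, was lower, at -0.46 and -0.28 (limma adjusted p = 0.000132 and 0.00513), and without WT-GR Dex replicates 2 and 3 the latter was -0.14 (limma adjusted p = 0.181).

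**Figure D3:**
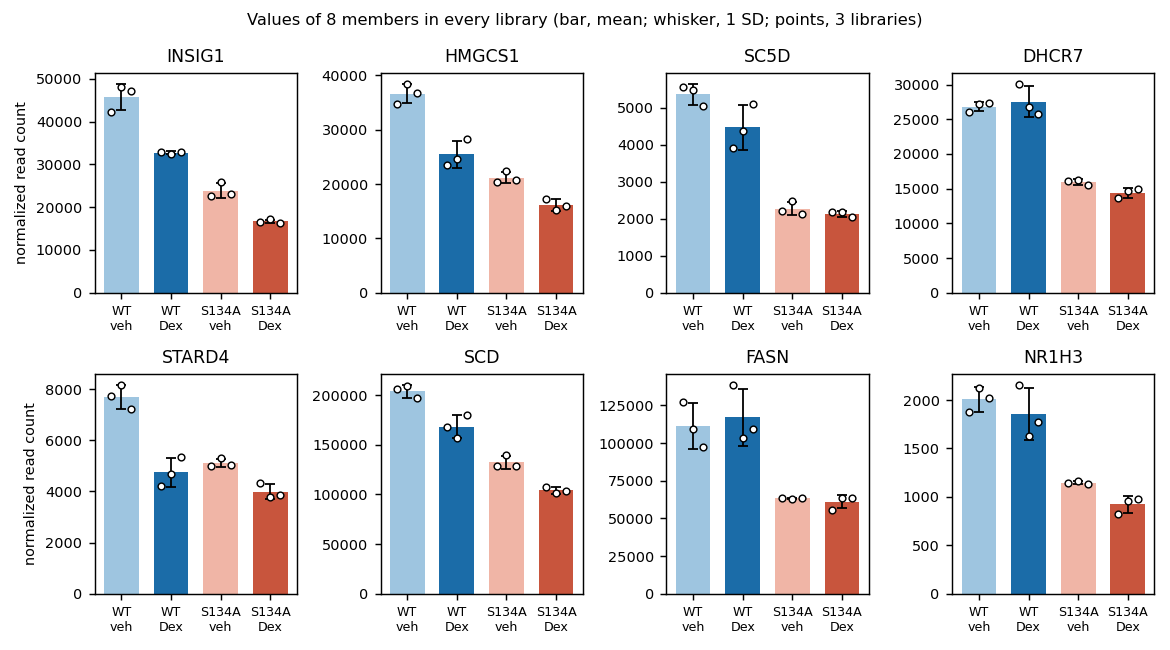
Normalized read counts of 8 members in each of the 12 libraries (points), with the mean (bar) and 1 SD (whisker) of the 3 libraries of each group, on linear axes that start at 0. INSIG1 falls in steps from WT-GR vehicle (45728 ± 3129) to S134A-GR Dex (16714 ± 387), while DHCR7 and FASN differ between genotypes and are not called for Dex.

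Of the carriers of cholesterol inside the cell, STARD4, a soluble sterol transporter, was lower, at -0.59 in vehicle (limma adjusted p = 4.27e-05) and at -0.24 in Dex (limma adjusted p = 0.0221), where the genotypes overlapped. The Dex call was lost without any 1 of 3 libraries, S134A-GR Dex replicates 2 and 3 and WT-GR Dex replicate 3. Without WT-GR Dex replicates 2 and 3 together the difference was -0.08. The lysosomal exporters NPC1 and NPC2 were at -0.08 and 0.11 in vehicle, neither called, and in Dex NPC1 was lower, at -0.22 (limma adjusted p = 0.00484) and NPC2 was at 0.00.

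Of the 6 fatty acid synthesis enzymes, 5 were called lower in each treatment. FASN (chromosome 17, 82078333 to 82098332) had counts of 127518, 109449 and 97436 (WT-GR vehicle), 138756, 103376 and 109052 (WT-GR with Dex), 63189, 63165 and 63541 (S134A-GR vehicle) and 55865, 63412 and 63518 (S134A-GR with Dex), so that the lowest WT-GR library stood above the highest S134A-GR library. FASN was 1.76-fold lower in vehicle and 1.92-fold lower in Dex (log2 -0.81 and -0.93, limma adjusted p = 2.98e-05 and 8.73e-06). ACSS2, which makes acetyl-CoA from acetate (chromosome 20, 34872146 to 34927962), had counts of 14461, 16109.8 and 15693 (WT-GR vehicle), 17241, 15326 and 16607 (WT-GR with Dex), 9544, 10314 and 9417 (S134A-GR vehicle) and 9154, 9320.3 and 9497 (S134A-GR with Dex), again without overlap. Its log2 differences were -0.66 and -0.81 (limma adjusted p = 5.81e-07 and 9.18e-08). SCD was lower, at -0.62 and -0.69, the elongase ELOVL6 at -0.69 and -0.63, and ACLY at -0.37 and -0.42 (limma adjusted p from 1.2e-07 to 2.68e-05). The enzyme not called was ACACA, which scattered from 302 to 1087 without order between groups. Its differences of -0.21 and 0.48 had 95% intervals of -1.17 to 0.75 and -0.48 to 1.45. In vehicle a difference of the size seen in FASN lies within that interval and was not detectable.

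The LXR genes were lower too, apart from NR1H2. NR1H3, which encodes LXR alpha (chromosome 11, 47248300 to 47269032), had counts of 1874, 2123 and 2023 (WT-GR vehicle), 2159.6, 1634 and 1774 (WT-GR with Dex), 1144, 1159.7 and 1129 (S134A-GR vehicle) and 826, 960.0 and 981 (S134A-GR with Dex). The genotypes were separate in both treatments, at 1.75-fold lower in vehicle and 2.01-fold lower in Dex (log2 -0.81 and -1.0, limma adjusted p = 1.59e-05 and 2.43e-06). NR1H2, LXR beta, was at 0.08 and -0.15 (limma adjusted p = 0.43 and 0.134).

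Among LXR targets, the exporter ABCA1 was lower, at -0.46 and -0.64, and MYLIP, a ubiquitin ligase that marks lipoprotein receptors for degradation, at -0.29 and -0.58 (limma adjusted p from 3.05e-05 to 0.0217). The ABCA1 call in vehicle was lost without WT-GR vehicle replicate 1 or S134A-GR vehicle replicate 2, at -0.42 to -0.25. ABCG1, another sterol exporter (chromosome 21, 42199689 to 42297244), was barely expressed, with counts of 24.4, 27.5 and 14.7 (WT-GR vehicle), 12, 14 and 4.07 (WT-GR with Dex), 0, 0 and 0.891 (S134A-GR vehicle) and 0, 0 and 0 (S134A-GR with Dex). In reads this was 55 in WT-GR vehicle against 1 in S134A-GR vehicle, a 69.5-fold ratio with an exact 95% counting interval of 12 to 2790.0, and 25 in WT-GR Dex against 0 in S134A-GR Dex, at least 10.2-fold lower with a floor of 3 reads over the group. Such intervals cover counting error only and take every read as independent. Among genes with few reads, 58.2% to 67.5% of the counts in a library were even. Whether both mates of a pair were counted was not tested, and in that case the interval is too narrow. ABCG1 passed the filter on low values through its WT-GR libraries alone, so its place among the members counted as lower follows from that filter, and no test is given for it.

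Dex was compared with vehicle in each genotype to ask how the hormone moved these genes. A minority of the members fell, with the widest called change at 1.63-fold (STARD4, WT-GR). In WT-GR cells 9 members fell and 2 rose by limma (adjusted p under 0.05), against a background of 14% lower and 13.9% higher over all genes tested. In S134A-GR cells 11 fell and 0 rose, against 7.76% lower and 7.99% higher. Beside that count of 0, 0 members were higher before adjustment (unadjusted p under 0.05), and edgeR and DESeq2 each called 0 higher. Median log2 changes were -0.07 and -0.12, against -0.02 and -0.016 over all genes.

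The members that fell in both genotypes were HMGCS1, INSIG1, INSIG2, STARD4, ELOVL6 and SCD, 6 in number. Each of the 6 was also called lower for genotype under vehicle and under Dex, in comparisons that share libraries with these. The share of all genes called lower in these comparisons together was not counted. Without WT-GR Dex replicates 2 and 3, the 9 that fell in WT-GR cells were still below 0, from -0.87 (STARD4) to -0.28 (SCD). Among the members that moved up in that fit were MVD (0.37), PMVK (0.35), FASN (0.32), SCAP (0.26), MVK (0.21), NSDHL (0.19), ACLY (0.19), FDPS (0.17), DHCR7 (0.17) and SREBF2 (0.16). With all libraries these 10 were at 0.03 to 0.19 and were not called. For each of them WT-GR Dex replicate 1, the library kept, held the highest value of its group. Without replicate 3 alone, MVD, PMVK, SCAP, MVK and NSDHL were called higher. In that fit 3085 of all genes were higher, against 2216 with all libraries. Without replicate 1 alone, 9 members fell and 0 rose, with 1902 lower and 1704 higher over all genes. Scaling by library size alone gave 11 lower and 0 higher in WT-GR cells, with 3023 lower and 1448 higher over all genes. Leaving out WT-GR vehicle replicate 2 gave 7 lower and 0 higher, with 1465 lower and 1512 higher over all genes. The main fit called 2239 of all genes lower and 2216 higher.

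**Figure D4:**
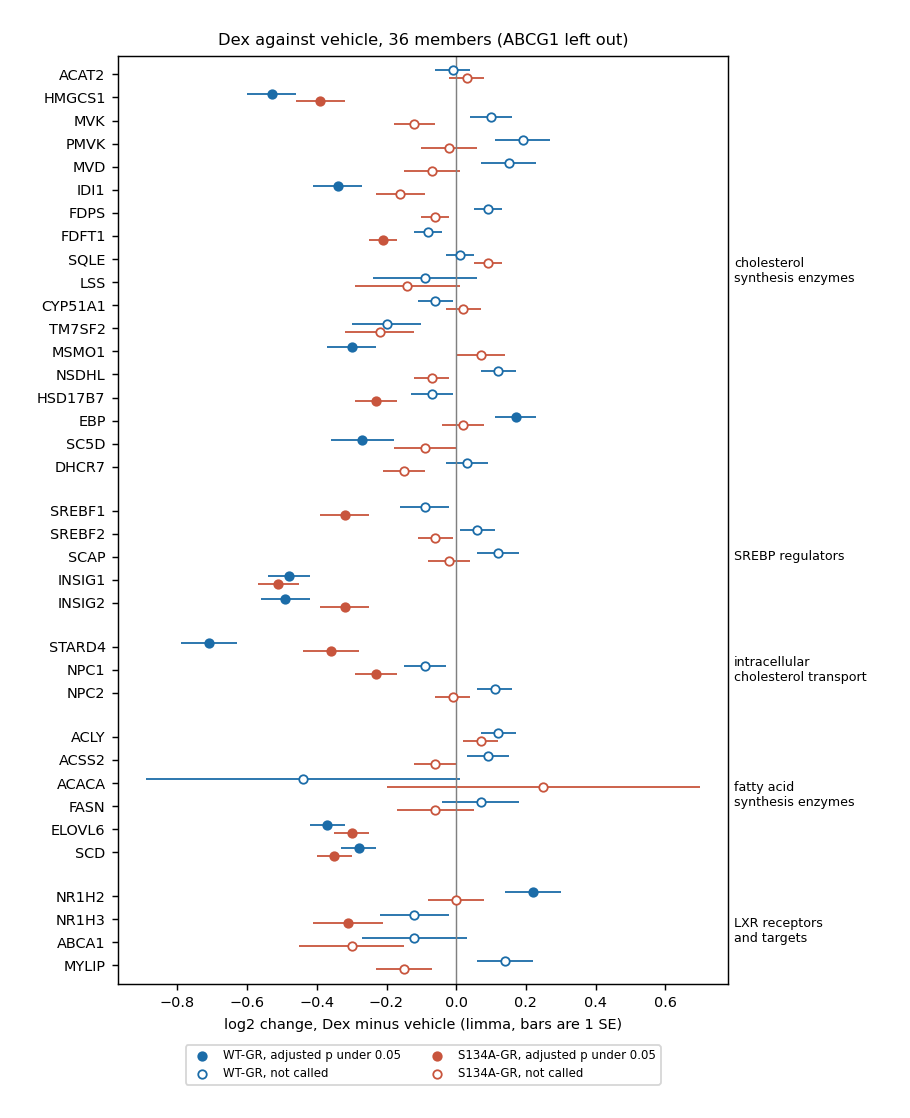
log2 change with Dex (limma, bars are 1 SE) for 36 members grouped by role, for each genotype, with filled points at adjusted p under 0.05. The filled points lie between -0.71 (STARD4, WT-GR) and 0.22 (NR1H2, WT-GR), and the pairs of points of HMGCS1, INSIG1, INSIG2, STARD4, ELOVL6 and SCD are filled on the left in both genotypes.

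Of the 18 cholesterol synthesis enzymes, 4 fell and 1 rose in WT-GR cells and 3 fell in S134A-GR cells. HMGCS1 fell from 36663 ± 1821 to 25489.9 ± 2521 (SD, n = 3) in WT-GR cells and from 21213 ± 1064 to 16187 ± 1068 in S134A-GR cells. Vehicle and Dex libraries did not overlap, at log2 changes of -0.53 ± 0.07 and -0.39 ± 0.07 (SE, limma adjusted p = 9.1e-05 and 0.00129).

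IDI1 (chromosome 10, 1039152 to 1049170), which isomerises the isoprene unit, had counts of 14049, 15201 and 14929.8 (WT-GR vehicle), 10257, 12443 and 12374 (WT-GR with Dex), 12486, 13583 and 12435 (S134A-GR vehicle) and 12159.9, 11180.0 and 11142 (S134A-GR with Dex). Every Dex library was below every vehicle library of its genotype. It fell in WT-GR cells, at -0.34 (limma adjusted p = 0.00326), while S134A-GR cells gave -0.16 (limma adjusted p = 0.171).

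MSMO1 (chromosome 4, 165327623 to 165343160) had counts of 19211, 20518 and 18202 (WT-GR vehicle), 14612, 15515 and 17129 (WT-GR with Dex), 12351, 13516 and 12508 (S134A-GR vehicle) and 14944, 12716 and 12752 (S134A-GR with Dex). In WT-GR cells the Dex libraries were all below the vehicle libraries, and in S134A-GR cells they overlapped. Its change was -0.30 in WT-GR cells (limma adjusted p = 0.00956) and 0.07 in S134A-GR cells (limma adjusted p = 0.634). Without WT-GR vehicle replicate 2 the former was -0.25 (limma adjusted p = 0.0518).

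SC5D fell in WT-GR cells, at -0.27 (limma adjusted p = 0.0322), although WT-GR Dex replicate 3 lay within the vehicle range. This call was lost without any 1 of 4 WT-GR libraries (vehicle replicates 1 and 2, Dex replicates 1 and 2), at -0.26 to -0.18. EBP (chromosome X, 48521158 to 48528716) had counts of 6371, 6652 and 6776 (WT-GR vehicle), 8147, 7166 and 6974 (WT-GR with Dex), 7203, 6894 and 6883 (S134A-GR vehicle) and 7035, 7174 and 7077 (S134A-GR with Dex). It rose in WT-GR cells by 0.17 (limma adjusted p = 0.037), with the Dex libraries above the vehicle libraries, and was at 0.02 in S134A-GR cells. The EBP call held in 13 of 23 alternative settings.

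FDFT1 (chromosome 8, 11795573 to 11839309) had counts of 25649.9, 26486 and 27271 (WT-GR vehicle), 25562, 24095 and 25307 (WT-GR with Dex), 22323, 22699 and 21942 (S134A-GR vehicle) and 19042, 19058 and 19749 (S134A-GR with Dex), with the S134A-GR Dex libraries the lowest of all. It fell in S134A-GR cells, at -0.21 (limma adjusted p = 0.00176), and its change in WT-GR cells was -0.08 (limma adjusted p = 0.134). HSD17B7 (chromosome 1, 162790702 to 162812817) had counts of 3104, 3228 and 3555 (WT-GR vehicle), 3104, 3099 and 3180.2 (WT-GR with Dex), 3104, 3201 and 3221 (S134A-GR vehicle) and 2777, 2601 and 2734 (S134A-GR with Dex). Here too the S134A-GR Dex libraries stood below the other 3 groups, with a change of -0.23 in S134A-GR cells (limma adjusted p = 0.0103) and a change of -0.07 in WT-GR cells (limma adjusted p = 0.354). The remaining enzymes were not called with all libraries, among them DHCR7 at 0.03 and -0.15, TM7SF2 at -0.20 and -0.22, and LSS at -0.09 and -0.14, in WT-GR and S134A-GR cells in turn.

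Among SREBP regulators, 2 of 5 fell in WT-GR cells and 3 of 5 in S134A-GR cells. INSIG1 changed by -0.48 ± 0.06 in WT-GR cells and -0.51 ± 0.06 in S134A-GR cells (SE, limma adjusted p = 2.74e-05 and 1.51e-05), a fall of 1.4-fold and 1.43-fold. INSIG2 (chromosome 2, 118088452 to 118110997) had counts of 3679, 4009 and 3900.1 (WT-GR vehicle), 2486, 2776 and 2983 (WT-GR with Dex), 2693, 2986 and 2762 (S134A-GR vehicle) and 2382, 2241 and 2151 (S134A-GR with Dex). Its Dex libraries were below its vehicle libraries in both genotypes, at -0.49 and -0.32 (limma adjusted p = 0.000191 and 0.0068).

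SREBF1 (chromosome 17, 17810399 to 17837002) had counts of 20196, 20084 and 20326 (WT-GR vehicle), 21241, 19234 and 16789 (WT-GR with Dex), 15681, 16218 and 15460.3 (S134A-GR vehicle) and 11832, 13188 and 13004 (S134A-GR with Dex). Its S134A-GR Dex libraries were the lowest, and it fell in S134A-GR cells, at -0.32 (limma adjusted p = 0.00553), while its change in WT-GR cells was -0.09 (limma adjusted p = 0.369). SREBF2 was at 0.06 and -0.06 and SCAP at 0.12 and -0.02, none of them called with all libraries. Without WT-GR Dex replicates 2 and 3, SREBF2 was at 0.16 and SCAP at 0.26 in WT-GR cells.

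STARD4 showed the widest called response to Dex. STARD4 (chromosome 5, 111496033 to 111512590) had counts of 7736, 8153 and 7218 (WT-GR vehicle), 4209.9, 4678 and 5328 (WT-GR with Dex), 4989.9, 5308 and 5034 (S134A-GR vehicle) and 4334, 3765 and 3870.0 (S134A-GR with Dex). Dex libraries lay below vehicle libraries in both genotypes, and WT-GR Dex came down into the range of the S134A-GR libraries. Its change was -0.71 ± 0.08 in WT-GR cells and -0.36 ± 0.08 in S134A-GR cells (SE, limma adjusted p = 2.18e-05 and 0.00656). NPC1 (chromosome 18, 23506184 to 23586898) had counts of 16939, 16563 and 14975 (WT-GR vehicle), 15795, 13969.9 and 15689 (WT-GR with Dex), 15220.4, 14906 and 15545 (S134A-GR vehicle) and 13129.9, 12726 and 13081 (S134A-GR with Dex). It fell in S134A-GR cells, at -0.23 (limma adjusted p = 0.0111), where the groups did not overlap, and was at -0.09 in WT-GR cells. NPC2 was not called, at 0.11 and -0.01.

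Of the fatty acid enzymes, the 2 that modify the finished chain fell in both genotypes. ELOVL6, which lengthens palmitate (chromosome 4, 110045846 to 110199199), had counts of 10154, 10684 and 10585 (WT-GR vehicle), 8061, 7954 and 8378 (WT-GR with Dex), 6189.8, 6719 and 6517 (S134A-GR vehicle) and 5576, 5101 and 5116 (S134A-GR with Dex). Its 4 groups were separate from one another, and it changed by -0.37 and -0.30 with Dex (limma adjusted p = 0.000102 and 0.000622). SCD (chromosome 10, 100347124 to 100364834) had counts of 206042, 209344 and 196693 (WT-GR vehicle), 168083, 157026 and 179695 (WT-GR with Dex), 128383, 139989 and 128914 (S134A-GR vehicle) and 107452, 101209.6 and 103333 (S134A-GR with Dex). Its groups were likewise separate, with changes of -0.28 and -0.35 (limma adjusted p = 0.00195 and 0.000389). The enzymes that supply and build the chain were not called with all libraries: FASN was at 0.07 and -0.06, ACLY at 0.12 and 0.07, ACSS2 at 0.09 and -0.06, and ACACA at -0.44 and 0.25. With WT-GR Dex replicates 2 and 3 left out, FASN was at 0.32 and ACLY at 0.19 in WT-GR cells.

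Of the LXR genes, 1 rose in WT-GR cells and 1 fell in S134A-GR cells. NR1H2 (chromosome 19, 50329653 to 50382982) had counts of 8571, 8804 and 9059.6 (WT-GR vehicle), 11341, 10657 and 9016 (WT-GR with Dex), 9250.3, 9439.7 and 9226 (S134A-GR vehicle) and 8316, 9935 and 9680.2 (S134A-GR with Dex), with WT-GR Dex replicate 3 inside the vehicle range. It rose in WT-GR cells by 0.22 (limma adjusted p = 0.0492), a call that held in 8 of 23 alternative settings, and was at 0.00 in S134A-GR cells. NR1H3 fell in S134A-GR cells, at -0.31 (limma adjusted p = 0.0445), held in 12 of 23 settings, and was at -0.12 in WT-GR cells. ABCA1 (-0.12 and -0.30), MYLIP (0.14 and -0.15) and ABCG1 were not called in either genotype.

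The last comparison asks whether the response to Dex differed between the genotypes. By limma 0 of 37 members were called, where 0.238% of all genes were higher and 0.175% lower. Beside this 0, 9 members had an unadjusted p under 0.05 (2 higher and 7 lower in the S134A-GR response), edgeR called 0, and DESeq2 called 1, MSMO1, which is named after its value was seen. The difference of responses of MSMO1 was 0.37 ± 0.10 (SE, limma adjusted p = 0.144, 95% interval 0.14 to 0.59), and that of STARD4 0.35 ± 0.11 (adjusted p = 0.188, interval 0.10 to 0.59). For the other members that fell in both genotypes the differences were 0.14 for HMGCS1 (-0.08 to 0.35), -0.03 for INSIG1 (-0.20 to 0.14), 0.18 for INSIG2 (-0.04 to 0.39), 0.07 for ELOVL6 (-0.08 to 0.22) and -0.07 for SCD (-0.23 to 0.10). A call in one genotype alone, as for FDFT1 or NPC1, is therefore in this fit not shown to be a difference between genotypes.

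This count of 0 depended on the WT-GR Dex libraries. Without replicates 2 and 3 it was 16 members, 4 higher and 12 lower in the S134A-GR response, and without replicate 3 alone it was 6. The 4 higher were IDI1 at 0.36, MSMO1 at 0.47, SC5D at 0.36 and STARD4 at 0.51, where the change in S134A-GR cells was less negative (limma adjusted p from 0.0223 to 0.0453). The 12 lower were MVD (-0.44), NR1H3 (-0.42), SREBF1 (-0.39), NR1H2 (-0.37), PMVK (-0.36), MVK (-0.33), DHCR7 (-0.32), EBP (-0.28), SCAP (-0.28), NSDHL (-0.26), FDPS (-0.23) and SREBF2 (-0.23), at limma adjusted p from 0.0202 to 0.0456. Without replicate 3 alone the 6 were MSMO1 and STARD4 (both 0.43), SREBF1 and NR1H2 (both -0.32), MVK (-0.28) and NSDHL (-0.22). With replicate 1 alone left out, 0 members were called. Removing replicates 2 and 3 raised the count over all genes from 66 to 2565, beside the 16 among the members.

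Other genes of sterol and lipid metabolism, 63 listed by branch and 62 of them tested (SOAT2 was too low), were called in both directions. In vehicle 25 were lower and 10 higher in S134A-GR cells, and in Dex 25 and 12, with median differences of -0.10 and -0.11. Over all genes 26.7% were lower and 23.8% higher in vehicle, and 26.3% and 23.4% in Dex. The desaturases FADS2 (-1.0 and -1.06 in vehicle and Dex) and FADS1 (-0.84 and -0.77) were lower, as was LPIN1, a phosphatidate phosphatase (-0.81 and -0.74). CYP27A1, a sterol hydroxylase, was lower, at -2.41 and -3.20. Against this direction, MLXIPL, a carbohydrate-responsive transcription factor, was higher at 1.11 and 0.88, DGAT1, which completes triglycerides, at 0.69 and 0.58, SCARB1, a lipoprotein receptor, at 0.42 and 0.32, and TRIB1 at 0.35 and 0.46.

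In the other branches, PPARG (-0.71 and -0.52), RXRA, the partner of the LXRs (-0.31 and -0.58), LPCAT3 (-0.53 and -0.62) and OSBP (-0.35 and -0.34) were lower in vehicle and in Dex. Of the isoprenoid branch 6 of 10 were lower in each treatment, with PDSS2 at -0.57 and -0.43, NUS1 at -0.49 and -0.34, and PGGT1B at -0.45 and -0.52. TMEM97, a membrane protein of sterol handling, was lower, at -0.36 and -0.33. All of these passed limma, at adjusted p values up to 0.00154.

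With Dex, 14 of these 62 rose and 13 fell in WT-GR cells, and 10 rose and 6 fell in S134A-GR cells, where 13.9% and 14% of all genes rose and fell in the former and 7.99% and 7.76% in the latter. ACSL1, which activates fatty acids, rose by 0.88 and 0.49 (limma adjusted p = 5.75e-08 and 2.14e-05), and CHKA, choline kinase, by 0.31 and 0.39. The lipoprotein receptors LRP8 (-0.33 and -0.16) and VLDLR (-0.27 and -0.24), the triglyceride enzyme DGAT2 (-0.39 and -0.37), TMEM97 (-0.25 and -0.23) and MLXIPL (-0.51 and -0.74) fell in both genotypes. LPIN1 also fell in both (-0.31 and -0.23), while ELOVL1 (0.30 and 0.19), MLXIP (0.38 and 0.26) and FADS1 (0.16 and 0.23) rose in both. MBTPS2, a protease that cleaves SREBPs, was called in WT-GR cells (-0.30 and -0.03), as was PDSS2 (-0.24 and -0.10), and NRIP1 was called in S134A-GR cells (0.28 and 0.39). Those last differences between genotypes were not called. For the difference of responses limma called 0 of the 62, with 9 under 0.05 before adjustment, and edgeR called 0 and DESeq2 2.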

How the data were processed

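RNA from 12 libraries was prepared with a TruSeq RNA kit and sequenced on a HiSeq2500 as 75-base paired ends, per the labels' protocols. The deposited values are a signal, read counts divided by a size factor for each library. The submitters' processing notes name featureCounts, Subread, DESeq2 (1.22.2), FastQC (0.11.7) and hg38, with the aligner and gene annotation not given in the sources used here.

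In the deposited Dex files the gene names are shifted against the values, so values were named by line from the vehicle files: libraries correlated at 0.9816 to 0.9886 by line and at -0.0056 to -0.0036 by name, and 994 of 994 windows of 20 lines matched best at the same line. Of 26485 names 6578 had no value. Every Dex result rests on this step.

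Genes with a value of 10 or more in at least 3 libraries (15957 of 19907) were tested on log2(value + 1) with limma (3.58.1, R 4.3.3) in 1 fit of all 12 libraries, with Benjamini-Hochberg adjustment over all genes and a threshold of 0.05. Such fold changes understate low genes. Alternatives included edgeR (4.0.16) and DESeq2 (1.42.0) on reads recovered from the values (tolerance 0.01), other pseudocounts and filters, and each library left out. The limma and edgeR fits, but not DESeq2, were run on simulated data with known changes. The simulated spread was set alike in every group, so the wider spread of WT-GR Dex was not covered. The members and the other lists were chosen with earlier results of these data known. Values per library were given for members called with Dex and for the 10 with the widest called genotype difference in vehicle or in Dex, and the other pathway genes named are the 2 with the widest called change in each list, apart from 1 result that is not reported here. Positions are from GENCODE 29.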

Additional observations from a re-analysis of the deposited data

How the results depend on the processing

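No called result changed sign in the alternatives run, but some values that were not called did: for Dex in WT-GR cells LSS ran from -0.09 up to 0.14, SREBF1 from -0.09 up to 0.07, NR1H3 from -0.12 up to 0.11 and FASN from 0.07 down to -0.06, and for genotype in Dex PMVK ran from 0.12 down to -0.04. The genotype counts of 27 members in vehicle and 28 in Dex ran from 25 to 28 and from 25 to 29 when 1 library was left out. The count of members called for Dex in WT-GR cells (11) was 20 with library weights, 21 without WT-GR Dex replicates 2 and 3, and 7 to 16 with 1 library left out. Over all genes that comparison (4455) gave 2490 with the compared groups only, 7113 with library weights and 2977 to 6088 with 1 library left out, and Dex in S134A-GR cells (2513) gave 5116 with library weights. For the difference of responses the members called (0) were 1 with DESeq2, 6 with library weights, 16 without WT-GR Dex replicates 2 and 3 and 0 to 6 with 1 library left out, and over all genes (66) the counts were 506, 2854, 2565 and 26 to 1623, and 25 with the replicate block. The cause was not tested. The iteration for library weights stopped before it converged.

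Same-numbered libraries did not deviate together (correlations of -0.09 to 0.05), so no shared deviation by replicate number was seen. The labels do not say whether the numbers pair the samples. With the replicate block 8 and 10 members were called for Dex in WT-GR and S134A-GR cells, 0 for the difference, and 26 and 28 for genotype in vehicle and Dex. Calls lost were EBP (limma adjusted p = 0.0611), SC5D (0.0518) and NR1H2 (0.0726) in WT-GR cells, NR1H3 (0.085) in S134A-GR cells and SCAP (0.0537) in vehicle.

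Leaving out 1 library also ended the genotype calls of IDI1 and SCAP in vehicle (4 and 6 libraries) and of NSDHL (4), MSMO1 (3) and STARD4 (3) in Dex. With S134A-GR Dex replicate 2 or S134A-GR vehicle replicate 3 left out it ended the Dex calls of HSD17B7 (limma adjusted p = 0.0575) and NPC1 (0.0518). Depth limits ABCG1 alone among the members, with 0 to 1 reads per S134A-GR group.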
